A study of Homo sapiens with 12 samples.

Results

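The ABC transporters are membrane proteins that spend ATP to move drugs, conjugates, lipids or peptides across a membrane. Described here are 7 of them in KKU-213A, a human cell line from a mixed papillary and non-papillary cancer of the bile ducts. They are the drug efflux pumps ABCC1, ABCC3, ABCC4 and ABCG2, the lipid transporters ABCA1 and ABCA12, and ABCB10 of the mitochondrial inner membrane. The genes were chosen by name because the authors' deposited tables list them as changed against control, out of 5308 genes in any of the 3 tables. Their differences from control therefore chose them and are given as a description, without a test. All 7 were in the lactic acidosis table, 6 in the lactosis table and 2 in the acidosis table.

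Poly(A) RNA gave 12 libraries, with 3 per group and 4 groups. Controls were kept in low-glucose DMEM with serum. Lactic acidosis cells had that medium at pH 6.7 with 25 mM L-lactate and 25 mM of the buffer HEPES, reached by stepwise replacement. Lactosis cells had 25 mM L-lactate at pH 7.4, and acidosis cells had 25 mM HEPES at pH 6.5, and each treated culture spent at least 5 passages in its medium. Acid came with the buffer, the acid media differed in pH, and passages are stated only for treated cells, so these cannot be told apart from the treatments. Separate cultures are not stated for libraries of 1 group, and the spread between them may be technical. The line is 1 tumour line, and all 3 treated groups were set against the same 3 control libraries.

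ABC transporters bind ATP at a pair of conserved domains and use it to drive a substrate outward or between the leaflets of a membrane. Members of the ABCC class, also called MRPs, and ABCG2, also called BCRP, are known for multidrug resistance and for export of glutathione and glucuronide conjugates and bile acids in liver and bile duct cells. ABCA proteins mainly move sterols, phospholipids and sphingolipids.

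For ABCB10 and ABCA12, the members found in all 3 tables and in opposite directions, the 250 bases before a RefSeq start (GRCh38.p14, minus strand, 5′ to 3′) are shown because they differ in base composition. The ABCB10 stretch is chr1:229558708-229558957 and the ABCA12 stretch is chr2:215138627-215138876, and neither overlaps an annotated exon. Capitals mark the letters of 5 motifs searched on both strands: GGGCGG (the GC box), GCGTG (the core of the xenobiotic response element), TGACNNNGC (the core of the antioxidant response element), TCACNCCAC (a sterol regulatory element) and direct repeat 4 (AGGTCA, 4 bases of any kind, AGGTCA). In ABCB10 the adjoining GC boxes at -119 and -113 form 1 run of capitals.
ABCB10: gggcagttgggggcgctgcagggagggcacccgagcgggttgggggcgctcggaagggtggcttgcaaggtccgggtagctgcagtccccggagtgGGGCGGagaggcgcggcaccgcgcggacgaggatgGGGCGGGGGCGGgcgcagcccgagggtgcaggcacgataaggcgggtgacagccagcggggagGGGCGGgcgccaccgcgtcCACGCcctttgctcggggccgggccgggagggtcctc
ABCA12: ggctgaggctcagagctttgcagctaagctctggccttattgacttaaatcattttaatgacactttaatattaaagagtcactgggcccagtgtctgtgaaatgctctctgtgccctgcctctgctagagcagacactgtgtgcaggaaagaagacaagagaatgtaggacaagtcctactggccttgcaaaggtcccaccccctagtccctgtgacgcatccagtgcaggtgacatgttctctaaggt
The ABCB10 stretch had 77.2% G and C with 29 CpG pairs, and the ABCA12 stretch had 48.8% with 1. Over 35116 stretches of this length the median was 58.0% with 11 CpG pairs. ABCB10 held 4 GC boxes, which 42.6% of all stretches held at least once, and 1 xenobiotic core, which 32.2% held. None of the 5 motifs was in this ABCA12 stretch, nor in that of the other ABCA12 start in the table. RefSeq starts were matched for 5 of the 7 genes, all except ABCC1 and ABCC3. The GC box was also found in ABCA1 and ABCG2, and the xenobiotic core in ABCC4 and ABCG2. ABCA1, listed lower, had 61.6% G and C with 16 CpG pairs, and ABCC4, listed higher, had 80.4% with 42. ABCG2, also listed higher, had 1 start at 43.6% with 5 CpG pairs and another at 73.6% with 32. Whether base composition goes with direction was not tested. The antioxidant core, in 10.9% of stretches, was found in ABCC4 only, from base -149 to -141 counted back from the start, and neither the sterol element (0.883% of stretches) nor direct repeat 4 (5 stretches in all) was found in any of the 5.

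Values below are the authors' length-scaled expression values, which can be set side by side between genes. Library scale differed: weights that turn the values into the authors' size-factor scale were 1.0000 for control replicate 1 and between 0.7689 and 0.7963 for the other controls, so control replicate 1 lies low in the deposited values. It was lowest of the controls for 12 of the 15 listed ABC genes. For lactic acidosis the deposited values put treated over control 0.10 higher, at the median gene on the log2 scale, than the authors' folds do. The authors' folds are therefore quoted for changes against control.

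ABCC3 encodes MRP3, a pump of the basolateral membrane that exports bile acids and glucuronides. Control libraries had 1.66, 1.85 and 1.83, and lactic acidosis libraries 5.21, 4.63 and 4.73. Every lactic acidosis library lay well above every control, and the controls lay close together. The authors' deposited table gives a log2 fold change of 1.496, on group means of 74.8 and 211 normalised counts, and of the 2521 genes listed higher there 7.18% had a larger one. ABCC3 was in neither of the other tables, so its level in lactosis and in acidosis was not analysed here.

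The ABCC3 value also depends on its scale more than that of other genes. On the rescaled per-library values its log2 fold change was 1.33, which is 0.16 below the authors' deposited value, while the median absolute gap over 3954 genes was 0.0011. Only 0.658% of those genes had a larger gap. For the other members in that table the gap was 0.0109 at most. The per-library values are divided by gene length and the authors' means are not. Whether the length assigned to ABCC3 differed between libraries was not tested.

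ABCC1 encodes MRP1, which exports glutathione conjugates such as leukotriene C4. The control libraries stood at 10.69, 16.19 and 17.52, those of lactic acidosis at 23.38, 27.08 and 25.78, and those of lactosis at 21.96, 17.07 and 23.95. All lactic acidosis libraries were above all controls, whereas lactosis replicate 2 fell inside the control range. By the authors' deposited tables the log2 fold change was 0.69 in lactic acidosis and 0.49 in lactosis.

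ABCC4 encodes MRP4, which exports cyclic nucleotides, prostaglandins and bile acids. Its values were 10.86, 17.68 and 17.78 in control, 21.15, 23.47 and 21.13 in lactic acidosis, and 21.03, 16.74 and 23.44 in lactosis. As with ABCC1, the lactic acidosis range was clear of the controls and lactosis replicate 2 lay among them. The authors' deposited log2 fold changes were 0.42 and 0.40, smaller than those of 77.0% and 77.2% of the genes listed higher in the same tables.

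ABCG2, a plasma membrane pump for drugs, urate and porphyrins that works as a dimer, had 5.75, 7.68 and 8.45 in control. It had 9.91, 12.9 and 10.03 in lactic acidosis and 8.81, 8.83 and 11.65 in lactosis. Both treated ranges were above the control range, by a small margin in lactosis. The log2 fold changes in the authors' deposited tables were 0.48 and 0.40. With a probability of equal expression of 0.0183 in lactosis, ABCG2 was near the limit of 0.05 that decides listing. The member nearest to that limit was ABCA1 in lactic acidosis at 0.0212, and genes on the other side of it were not analysed here.

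ABCB10 sits in the inner mitochondrial membrane, where it is needed for haem synthesis in red cell precursors. Its mean was the highest of the members listed in each group, at 11.02, 17.35 and 20.23 in control, 31.89, 34.61 and 31.12 under lactic acidosis, 29.93, 24.74 and 28.74 under lactosis, and 25.15, 22.67 and 20.23 under acidosis. Libraries of lactic acidosis and lactosis stayed above the controls, and acidosis replicate 3 equalled control replicate 3. In the authors' deposited tables the log2 fold changes were 0.92, 0.77 and 0.50. A match to a pseudogene was found for 1 of 40 windows of 75 bases along its transcript, and none for the other 6 genes.

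ABCA12 loads glucosylceramides into lamellar granules of the epidermis. Control libraries stood at 2.44, 3.04 and 2.06. Lactic acidosis libraries stood at 0.52, 0.78 and 0.38, lactosis libraries at 1.02, 0.65 and 1.27, and acidosis libraries at 1.36, 0.75 and 0.87. No treated library reached the lowest control. The authors' deposited log2 fold changes were -2.29, -1.43 and -1.39, and 8.36%, 16.8% and 8.36% of the genes listed lower in the same tables had a larger fall. An antisense transcript covers 58 bases, 0.616%, of its exons.

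ABCA1 passes cholesterol and phospholipid to apolipoproteins, the first step of high-density lipoprotein formation. Its mean was the lowest of the members listed in each group that has it, with 0.7, 1.06 and 0.7 in control, 0.59, 0.61 and 0.39 in lactic acidosis, and 0.29, 0.25 and 0.27 in lactosis. All treated libraries were below all controls, and the lactosis libraries were lower still than those of lactic acidosis. The authors' deposited log2 fold change was -0.74 in lactic acidosis, on means of 81.1 and 48.4 normalised counts. In lactosis it was -1.64, on 72.3 and 23.2.

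**Figure D1:**
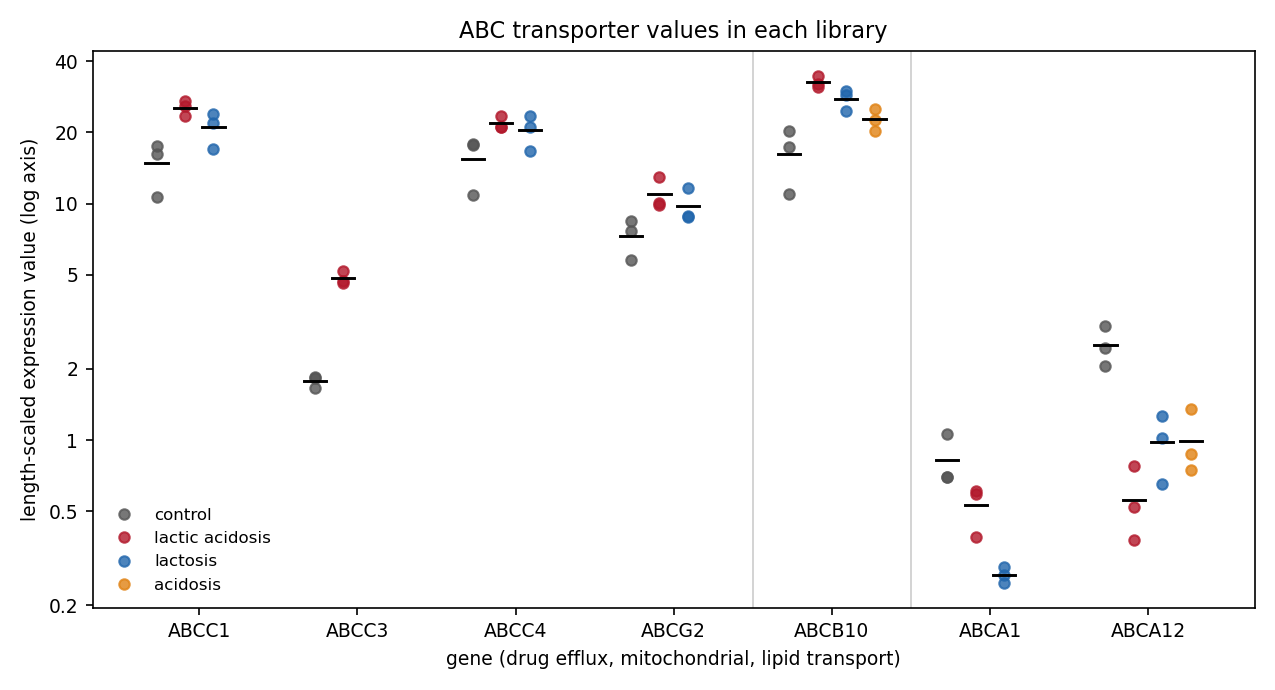
Deposited length-scaled expression value (log axis) of each ABC transporter, 1 point per library and a bar at the mean of 3, coloured by group; a missing colour means that the gene is not in that table. Treated means of the efflux genes and ABCB10 are higher and those of ABCA1 and ABCA12 lower than control, although ABCC1 and ABCC4 in lactosis and ABCB10 in acidosis overlap control libraries, with ABCC3 between 4.63 and 5.21 in lactic acidosis.

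Several differences from control were smaller without 1 library. On deposited values without control replicate 1 the log2 fold changes were 0.31 for ABCC4 in lactic acidosis, and in lactosis 0.20 for ABCC4, 0.32 for ABCC1 and 0.28 for ABCG2. ABCB10 in acidosis was then at 0.27. ABCA1 in lactic acidosis was at -0.40 without control replicate 2, and ABCG2 in lactosis at 0.27 without lactosis replicate 3. The direction was kept in each. With all libraries, on deposited values with a pseudocount of 0.1, ABCC4 was at 0.50 in lactic acidosis and ABCB10 at 0.48 in acidosis. On the same scale ABCC4, ABCC1 and ABCG2 were at 0.40, 0.50 and 0.42 in lactosis, and ABCA1 at -0.55 in lactic acidosis. Library scale was not removed from any of these values, so they are not set against the authors' folds.

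Counted over all members, separate library ranges were found for 7 of 7 under lactic acidosis, 4 of 6 under lactosis and 1 of 2 under acidosis. Because listing itself favours separate ranges, 90.2%, 84.0% and 75.5% of all listed genes had them, and nothing is read from the count. After rescaling by library weights the ranges were separate for 7, 6 and 2 members. The share of all listed genes after rescaling was not computed, so nothing is read from these counts either. The efflux pumps made up all 4 listed genes of an 11-gene drug efflux class in lactic acidosis, all higher, beside 58.9% higher among all listed genes. In lactosis 3 were listed, all higher, beside 59.3%. None of that class was in the acidosis table, where ABCB10 was higher beside 61.1% of listed genes.

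Of 22 genes of lipid and sterol transport, 4 were listed in lactic acidosis and all were lower, beside 41.1% lower among all listed genes. They were ABCA1, ABCA12, ABCA5 and ABCA10, and the last stood at 0.57, 0.51 and 0.42 in control against 0.2, 0.24 and 0.19. ABCA5 was at 1.57, 1.62 and 1.59 in control and at 0.96, 1.28 and 0.97 in lactic acidosis, below all controls. Acidosis had ABCA12 and ABCA5 lower, beside 38.9% of listed genes, and lactosis had ABCA1 and ABCA12 lower, beside 40.7%. The median authors' log2 fold change was 0.59 for the efflux class and -1.07 for the lipid class in lactic acidosis, with 0.36 over all listed genes. In lactosis these medians were 0.40, -1.53 and 0.35.

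The other ABC genes in the tables were few. ABCE1, which recycles ribosomes, ABCF1 and ABCF2, which do not transport, were listed higher in all 3 tables, with authors' deposited log2 fold changes between 0.22 and 0.82. TAP1, a subunit of the peptide transporter of antigen presentation, was listed lower at -0.58 in lactic acidosis and -0.76 in lactosis, while its partner TAP2 was listed higher at 0.37 in lactic acidosis and 0.18 in acidosis. For TAP2 35.0% and for ABCF2 52.5% of the 75-base windows occur in an overlapping transcript, so both are uncertain. None of 3 genes of the channel class, CFTR among them, was listed.

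**Figure D2:**
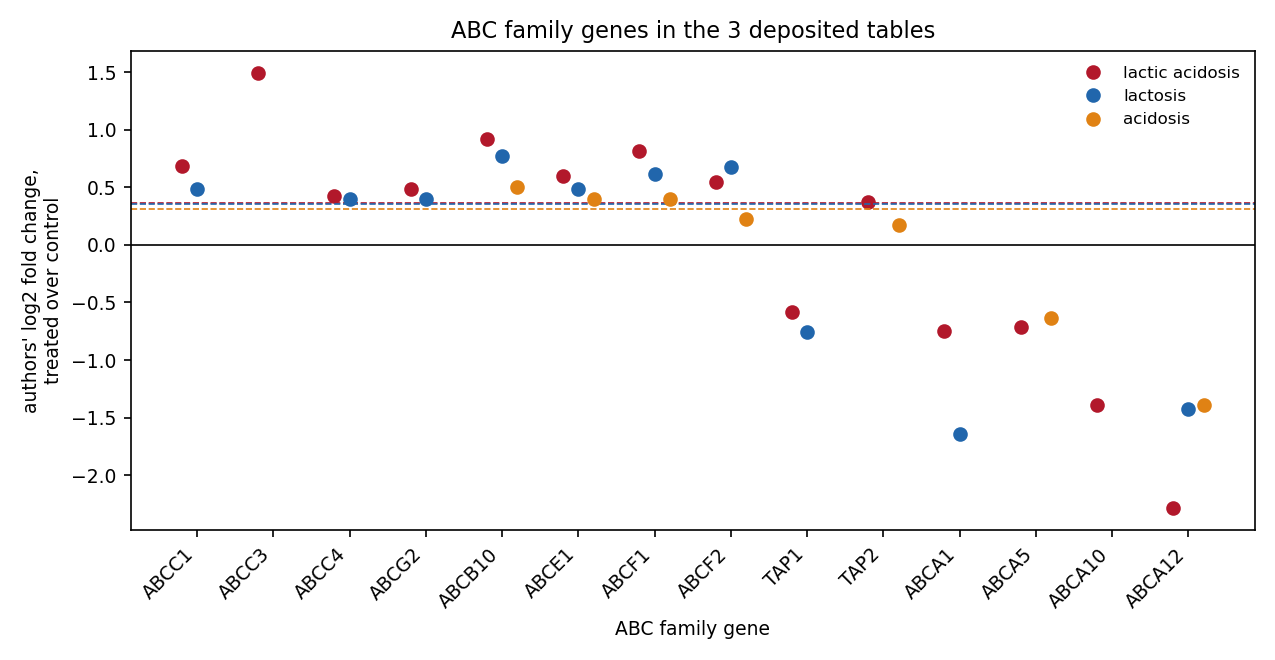
Authors' deposited log2 fold change of treated over control cells for 14 ABC family genes in the tables, coloured by table; dashed lines mark the median of all listed genes, between 0.32 and 0.36. Efflux genes lie above 0 and all 4 ABCA genes below it.

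Ratios between genes of 1 library do not depend on its scale. The efflux genes were chosen as listed higher and ABCA12 as listed lower than control. Separation of their ratios from control is therefore favoured by the choice and is given as a description. ABCC3 over ABCA12 was 0.680, 0.609 and 0.888 in the control libraries and 10.0, 5.94 and 12.4 in lactic acidosis, so their order was reversed in every library of the treated group. The ratio of ABCC1 to ABCA12 averaged 6.07 ± 2.16 (SD, n = 3) in control, 49.2 ± 17.0 in lactic acidosis and 22.2 ± 3.75 in lactosis, without overlap between the groups. For ABCG2 over ABCA12 the means were 2.99 ± 0.962, 20.7 ± 5.12 and 10.5 ± 2.71 (SD, n = 3).

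Within the efflux pumps the ratios moved less than those over ABCA12. ABCC1 over ABCC4 was between 0.916 and 0.985 in control, between 1.02 and 1.04 in lactosis and between 1.11 and 1.22 in lactic acidosis, and these ranges did not overlap. ABCC1 over ABCG2 was between 1.86 and 2.11 in control and between 2.10 and 2.57 in lactic acidosis, which overlapped. The share of ABCC3 in the sum of the 4 pumps was 4.67% ± 0.928 (SD, n = 3) in control and 7.73% ± 0.968 in lactic acidosis, without overlap. ABCC3 over ABCC1 went from 0.125 ± 0.0270 to 0.192 ± 0.0271 (SD, n = 3), also without overlap. ABCA12 over ABCA1 was between 2.87 and 3.49 in control and between 0.881 and 1.28 in lactic acidosis, but between 2.60 and 4.70 in lactosis, around the control range.

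**Figure D3:**
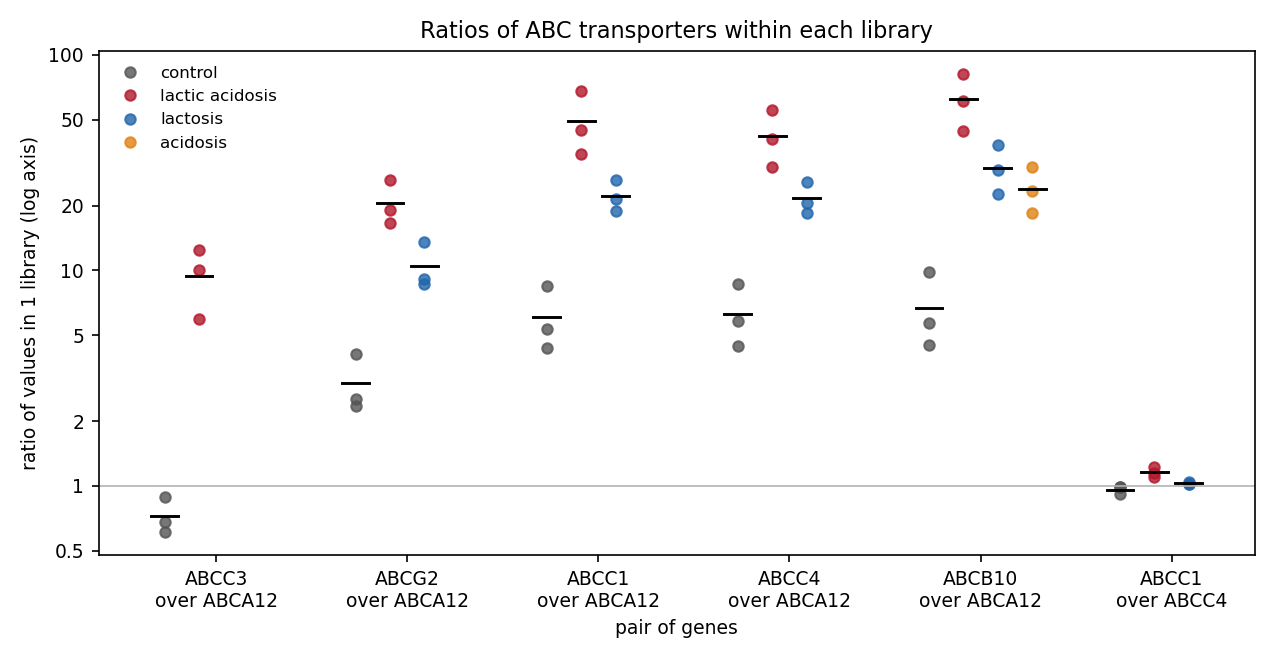
Ratio of 2 length-scaled values within the same library (log axis), 1 point per library and a bar at the mean of 3, for 6 pairs of ABC genes. Pairs with ABCA12 below are separate between control and every treated group shown, which the choice of genes favours. ABCC1 over ABCC4 stays between 0.916 and 1.22.

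In control cells the order of levels was ABCB10 at 16.2 ± 4.71, ABCC4 at 15.4 ± 3.97, ABCC1 at 14.8 ± 3.62, ABCG2 at 7.29 ± 1.39, ABCA12 at 2.51 ± 0.494, ABCC3 at 1.78 ± 0.104 and ABCA1 at 0.820 ± 0.208 (SD, n = 3). The libraries of the first 3 overlapped, and every later neighbour was separate. Lactic acidosis had ABCB10 at 32.5 ± 1.83, ABCC1 at 25.4 ± 1.88, ABCC4 at 21.9 ± 1.35, ABCG2 at 10.9 ± 1.69 and ABCC3 at 4.86 ± 0.310 (SD, n = 3). ABCA12 at 0.560 ± 0.203 and ABCA1 at 0.530 ± 0.122 (SD, n = 3) then overlapped, as did ABCC1 and ABCC4. In lactosis only ABCC1 at 21.0 ± 3.54 and ABCC4 at 20.4 ± 3.39 (SD, n = 3) overlapped their neighbour.

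Treated groups were then tested against each other, which uses no control library. The question is whether lactate with acid differed from either alone. Genes listed in both tables of a pair were fitted with limma on log2(value + 1), with Benjamini-Hochberg adjustment over all of them. These genes had been listed using the same libraries, so the tests describe the spread between libraries. Of 2344 genes, 479 (20.4%) passed between lactic acidosis and lactosis, 15.7% higher and 4.78% lower in lactic acidosis, beside 1 of 6 members, higher. Between lactic acidosis and acidosis 636 of 1304 (48.8%) passed, 38.7% higher and 10.0% lower in lactic acidosis, beside 2 of 2 members, 1 in each direction. Between lactosis and acidosis 280 of 1173 (23.9%) passed, 16.4% higher and 7.50% lower in lactosis, beside 0 of 2 members.

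ABCB10 was higher in lactic acidosis than in acidosis, at 32.5 ± 1.83 against 22.7 ± 2.46 (SD, n = 3), and all 3 lactic acidosis libraries exceeded all acidosis libraries. The difference on the log2(value + 1) scale was 0.51 with SE 0.092 (limma, adjusted p = 0.00179). In each alternative run the adjusted p by limma stayed between 0.000325 and 0.010. The rescaled difference was 0.41, beside a median over all genes of 0.16 on deposited and 0.07 on rescaled values. Against lactosis, with separate libraries, it was 0.22 higher (95% interval 0.02 to 0.43, limma, adjusted p = 0.114), and lactosis was 0.28 higher than acidosis (0.04 to 0.52, limma, adjusted p = 0.0878), neither of which passed. The second passed on rescaled values (limma, adjusted p = 0.0174), without lactosis replicate 2 (0.0423) and without acidosis replicate 1 (0.0335).

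ABCA12 was lower in lactic acidosis than in acidosis by limma (difference -0.35, SE 0.13, adjusted p = 0.0484), at 0.560 ± 0.203 against 0.993 ± 0.323 (SD, n = 3), although 1 pair of libraries overlapped, 0.78 against 0.75. The call was lost without lactic acidosis replicate 1 (limma, adjusted p = 0.119), without lactic acidosis replicate 3 (0.162), without acidosis replicate 1 (0.114) and with a pseudocount of 0.1 (0.0553) or 5 (0.180). It was kept on rescaled values (limma, adjusted p = 0.00774) and with the replicate block (0.0454). Without any other library the adjusted p by limma was between 0.0279 and 0.0404. Against lactosis the difference was -0.34 (95% interval -0.63 to -0.05, limma, adjusted p = 0.0881), which did not pass, but did on rescaled values (0.0417) and without lactosis replicate 2 (0.0231). Lactosis and acidosis had ABCA12 at 0.980 and 0.993, with a difference of -0.01 and an interval from -0.35 to 0.33.

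ABCA1 was lower in lactosis than in lactic acidosis, at 0.270 ± 0.0200 against 0.530 ± 0.122 (SD, n = 3), in 3 of 3 libraries (limma difference 0.27, SE 0.085, adjusted p = 0.0497). Between lactic acidosis and lactosis the means of the lipid transporters lay in opposite order. ABCA12 was lower in lactic acidosis, a difference that did not pass and in which libraries overlapped, and ABCA1 was lower in lactosis. ABCA1 was not listed in acidosis, and both genes are low. With the replicate number as a block ABCA1 lost its call (limma, adjusted p = 0.112), as it did with a pseudocount of 5 (0.400) and without any 1 library except lactic acidosis replicate 3 (limma, adjusted p between 0.0621 and 0.158). It passed on rescaled values (limma, adjusted p = 0.0399).

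None of the 3 efflux pumps in both tables passed between lactic acidosis and lactosis. ABCC1 differed by 0.27 (95% interval 0.01 to 0.54, limma, adjusted p = 0.127), ABCG2 by 0.15 (-0.13 to 0.43, adjusted p = 0.401) and ABCC4 by 0.11 (-0.15 to 0.37, adjusted p = 0.514). ABCC1 passed only without lactosis replicate 3 among the alternatives run (limma difference 0.37, adjusted p = 0.0248). Without lactosis replicate 2 the ABCC4 difference was -0.02. Lactosis replicate 2 was lowest of its group for 10 of the 11 listed ABC genes on deposited values. Its library weight was the largest of the group, 0.8830 beside 0.8173 and 0.7795, so its deposited values lie low. After rescaling ABCC1 and ABCC4 were still lowest in it, and ABCG2 was not. In lactosis replicate 2 the 6 listed genes of a 10-gene muscle list, CKM and ACTA1 among them, summed to 55.0. Replicates 1 and 3 had 0.470 and 0.530, and no control exceeded 1.48. Lactic acidosis replicate 2 was highest of its group for 10 of 14 ABC genes, and its weight was the smallest, 0.7609 beside 0.7945 and 0.8039. In it 8 listed muscle genes summed to 40.6. The sum was 5.76 and 4.63 in the other 2 libraries and between 12.2 and 16.8 in control. The part of the muscle genes in these results was not tested.

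**Figure D4:**
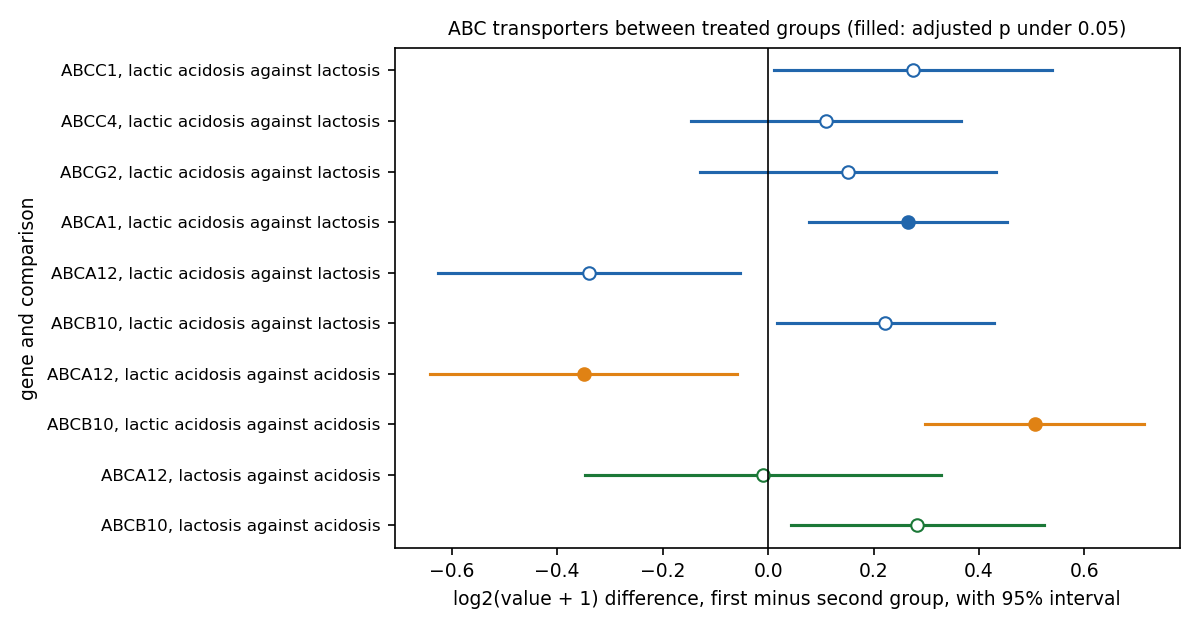
Limma difference on the log2(value + 1) scale between treated groups, first minus second, with its 95% interval, for each ABC transporter listed in both tables; filled points have an adjusted p under 0.05. ABCB10 between lactic acidosis and acidosis lies farthest from 0, at 0.51.

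Other genes of the pathways were counted from fixed lists. Among all listed genes 58.9%, 59.3% and 61.1% were higher in lactic acidosis, lactosis and acidosis. The lists hold few listed genes, and nothing is read from their counts here or below. On the list of the liver X receptor, known to switch on ABCA1 and other lipid genes, 8 of 18 genes were in the lactic acidosis table, 3 higher and 5 lower. Lactosis had 2 higher and 5 lower and acidosis 0 and 2. NR1H3, the receptor LXR alpha itself, averaged 12.1 ± 0.650 in control, 6.86 ± 1.29 in lactic acidosis and 6.64 ± 0.609 in lactosis (SD, n = 3). The authors' deposited log2 fold changes of its partner RXRA were -0.38 and -0.31 in those groups. NPC1, which lets cholesterol out of lysosomes, was listed lower in all 3 tables, at -0.74, -0.71 and -0.95 in the authors' deposited tables, and LPCAT3, an enzyme of phospholipid remodelling, was higher at 0.24 in lactic acidosis.

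The list of NRF2, a factor known to act on efflux pump genes, had 4 of 18 genes in lactic acidosis, 2 in each direction. In lactosis 1 was higher and 3 lower, and in acidosis 1 and 2. NFE2L2, which encodes NRF2, was lower in all 3 tables, at 113 ± 16.1 in control and 86.0 ± 6.15 in lactic acidosis (SD, n = 3), while SRXN1, a redox enzyme, was higher in all 3, at 26.5 ± 2.89 and 44.1 ± 1.04. TKT, a transketolase, was lower in lactic acidosis and lactosis, at -0.92 and -0.54 in the authors' deposited tables. The cystine importer SLC7A11 was lower in lactosis and acidosis, at -1.61 and -2.23.

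AHR, the receptor that senses aromatic compounds and is known to act on ABCG2, averaged 22.2 ± 3.79 in control, and 10.7 ± 1.31, 11.6 ± 0.716 and 10.7 ± 1.91 in lactic acidosis, lactosis and acidosis cells (SD, n = 3). A list of 12 genes held AHR with other xenobiotic genes, PPARA among them, and is not a list of AHR targets alone. Of these, 1 was higher and 4 lower in lactic acidosis, 1 and 2 in lactosis, and 0 and 1 in acidosis. The one higher was AHRR, the repressor of the receptor, at 0.51 in lactic acidosis. CYP1B1, a target gene, was lower at -1.45 there and PPARA, a fatty acid sensor, at -0.61, all in the authors' deposited tables. The remaining lower gene there, the target CYP1A1 at -2.30, was named after its value was seen.

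Enzymes that make the conjugates exported by MRPs had 4 of 21 genes in lactic acidosis, 1 higher and 3 lower, and 1 gene, higher, in each other table. GSTP1, the main glutathione transferase of bile duct cells, averaged 661 ± 42.8 in control and 242 ± 9.87 in lactic acidosis (SD, n = 3). GSTK1 and MGST2 were lower there at -0.76 and -0.47, and MGST1, a microsomal transferase, was higher in all 3 tables, at 0.33, 0.40 and 0.44 in the authors' deposited tables. Of 15 genes of bile acid and anion uptake, 3 were listed in lactic acidosis, all higher, beside 58.9% higher among all listed genes. They were the SLCO importers SLCO1B3, SLCO4A1 and SLCO3A1, at 1.02, 1.01 and 0.47 in the authors' deposited tables. SLCO1B3, known for uptake of bile acids and drugs in liver, averaged 10.8 ± 2.42 in control and 23.4 ± 1.97 in lactic acidosis (SD, n = 3). Lactosis had 2 higher and 1 lower, FGF19, and acidosis 1 higher, SLCO4A1.

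Haem synthesis and transport genes share the setting of ABCB10. Lactic acidosis had 3 of 17, all higher, beside 58.9% higher among all listed genes. Lactosis had 3 higher and 1 lower, beside 59.3%, and acidosis 1 higher, beside 61.1%. SLC25A37, the mitochondrial iron importer known to pair with ABCB10, averaged 13.8 ± 3.30 in control, 22.3 ± 0.523 in lactic acidosis and 19.97 ± 0.896 in lactosis (SD, n = 3). CPOX, an enzyme of the path, was higher in all 3 tables at 0.48, 0.47 and 0.40, FLVCR1, a haem exporter, at 0.56 in lactic acidosis and 0.60 in lactosis, and ALAS1, the first enzyme, was lower at -0.36 in lactosis, all in the authors' deposited tables.

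On the prostaglandin and cyclic AMP list, the substrates of ABCC4, 5 of 16 genes were higher and 3 lower in lactic acidosis, 3 and 3 in lactosis, and 1 and 1 in acidosis. PTGER4, a prostaglandin E2 receptor that raises cyclic AMP, had control mean 9.88 ± 3.66, with 31.8 ± 3.53 under lactic acidosis, 26.3 ± 2.46 under lactosis and 14.2 ± 0.976 under acidosis (SD, n = 3). PTGES, the prostaglandin E synthase, was lower in all 3 tables at -0.77, -0.88 and -0.26. PTGER2, another receptor of this kind, was higher at 1.73 in lactosis and ADCY7, an adenylate cyclase, at 0.38 in lactic acidosis, all in the authors' deposited tables. The epidermal lipid list around ABCA12 had 1 higher and 2 lower of 12 in lactic acidosis, 1 higher in lactosis and 1 lower in acidosis. Among them, ABHD5, a lipase cofactor, was at 0.47 in lactic acidosis and 0.50 in lactosis, and SMPD1, a sphingomyelinase, at -0.49 in lactic acidosis, in the authors' deposited tables.

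Last, the 1042 genes in all 3 tables were compared with ABCB10 and ABCA12 by the root mean squared difference between standardised log2(value + 1) profiles over 12 libraries, which share group means and library scale. Among the nearest to ABCB10 was PSME3, a proteasome activator, at 0.159, where the median gene stood at 0.487. PSME3 averaged 103 in control, 177 under lactic acidosis, 165 under lactosis and 132 under acidosis, the same order of groups as ABCB10. Nearest to ABCA12 were MCCC1, an enzyme of leucine breakdown, at 0.275 and MARK4, a kinase of microtubule proteins, at 0.276, where the median gene stood at 1.85. MARK4 had control mean 3.55 and treated means of 1.30 under lactic acidosis, 1.77 under lactosis and 2.05 under acidosis.

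By GENCODE release 29 on GRCh38, the 7 genes lie apart. ABCA1 is on chromosome 9 from 104781002 to 104928237, ABCA12 on chromosome 2 from 214931542 to 215138428, and ABCB10 on chromosome 1 from 229516582 to 229558695. ABCC1 is on chromosome 16 from 15949577 to 16143074, ABCC3 on chromosome 17 from 50634777 to 50692252, ABCC4 on chromosome 13 from 95019829 to 95301475, and ABCG2 on chromosome 4 from 88090264 to 88231322. ABCC1 and ABCC3 are on the plus strand and the other 5 on the minus strand. Of the biliary markers fixed for this line, KRT19, SOX9, CDH1 and MUC1 were in the lactic acidosis table. Their summed value was between 2876 and 4527 in control and between 2750 and 3200 in lactic acidosis. Of 4 hepatocyte markers SERPINA1 was listed, in lactic acidosis, at 4.62 to 7.38 in control and 9.44 to 10.71 in treated libraries. Of 3 endothelial markers PECAM1 was listed, in acidosis, at 0.11 to 0.54 in control and 0.73 to 1.28 in treated libraries. Of 5 fibroblast and 4 immune markers none was in any table. The part of these markers in the results was not tested.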

How the data were processed

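Poly(A) RNA was read as single-end reads of 75 nt per the labels' protocols, and STAR and hg38 are named in the submitters' processing notes. The counter is not given in the sources used here. The authors deposited 1 table per treatment with EBSeq column names. Per-library values are a deposited signal divided by gene length, and whether they are TPM or FPKM is not stated. Group means are a deposited signal of counts over size factors, and fold changes a deposited ratio of control over treated, turned round here. The deposited posterior probabilities were treated as a score between 0 and 1, and every listed gene had one of equal expression under 0.05. Depth is unknown, since unlisted genes were not analysed here.

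Members, gene lists and tests were chosen with earlier results of these data known. Named genes were all listed ABC genes, up to 4 genes per other list by the authors' probability, and the 2 nearest in pattern to ABCB10 and to ABCA12, and some of these are not reported here. Treated groups were compared by limma 3.58.1 (R 4.3.3), fitted to log2(value + 1) over all genes listed in both tables, and called at an adjusted p below 0.05. A fold on that scale understates the change of low genes. In simulated tables where 200 genes were shifted by 0.5 on the log2(value + 1) scale, 80.0% were recovered among the 2344 genes of lactic acidosis against lactosis, and 84.5% in each other pair. The simulated spread was independent for each gene and library. The data also hold shifts of whole libraries, so these shares need not hold for the members. Alternatives were pseudocounts of 0.1 and 5, a mean of at least 1, a replicate block, each library left out, and values rescaled by library weights fitted to the authors' ratios. Rescaling together with a pseudocount of 0.1, and the settings for the gap between efflux and lipid medians, were added after seeing the data. Other steps ran in Python 3.11.15 (pandas 2.3.3, numpy 2.4.6) with plots by matplotlib 3.10.9. Promoter sequences are RefSeq, GRCh38.p14.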

Additional observations from a re-analysis of the deposited data

Results flagged for a closer look

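Differences between treated groups, which equal the difference of their effects against the shared controls, passed limma for 3 of the 7 transporters, on the log2(value + 1) scale. ABCC3 was listed in lactic acidosis only and could not be tested. ABCA1 was 0.27 higher in lactic acidosis than in lactosis (3 of 3 libraries), ABCA12 was -0.35 lower in lactic acidosis than in acidosis (no separation of libraries), and ABCB10 was 0.51 higher in lactic acidosis than in acidosis (3 of 3 libraries). ABCA1 lost its call with the replicate block (limma, adjusted p = 0.112), with a pseudocount of 5 (0.400) and without any 1 library except lactic acidosis replicate 3. ABCA12 lost its call with a pseudocount of 0.1 (limma, adjusted p = 0.0553) or 5 (0.180), and without lactic acidosis replicate 1 or 3 or acidosis replicate 1. It kept the call with the replicate block (limma, adjusted p = 0.0454) and on rescaled values (0.00774). ABCB10 kept its call in each alternative run. Other ABC genes also passed. ABCF1, a translation factor, was 0.28 higher in lactic acidosis than in lactosis and 0.52 higher than in acidosis. The first call was lost with the replicate number as a block (limma, adjusted p = 0.0876), after rescaling (0.0560), and without lactosis replicate 1 or any 1 lactic acidosis library (0.0586 to 0.0916). ABCF2, ABCE1 and TAP2 were 0.47, 0.30 and 0.33 higher in lactic acidosis than in acidosis, and ABCF2 and TAP2 share sequence with an overlapping transcript. ABCE1 lost its call without lactic acidosis replicate 1 or 2 or acidosis replicate 2 or 3 (limma, adjusted p between 0.0601 and 0.0726), and TAP2 without acidosis replicate 2 (0.0559). The share of all tested genes that passed was 20.4% and 48.8% in these comparisons.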

How the results depend on the processing

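Of alternative values of single members against control, 138 moved by less than 1 SD and 12 by more, and none changed direction. A 2-fold minimum left 2 of 7 members under lactic acidosis, 2 of 6 under lactosis and 1 of 2 under acidosis, beside 26.3%, 21.1% and 12.6% of all listed genes. A 1.5-fold minimum left 5 under lactic acidosis, 3 under lactosis and 1 under acidosis. The share of all listed genes was not computed for it, so nothing is read from those counts. The gap between the efflux median and the median of ABCA1 and ABCA12 was 2.10 in lactic acidosis and 1.93 in lactosis. ABCA5 and ABCA10, part of the lipid class median given for lactic acidosis, were left out of it. With a pseudocount of 1 the gap was 1.34 and 1.05, and with 5 it was 0.72 and 0.55, since low genes are compressed. Between lactic acidosis and lactosis 1 member passed limma, and 0 with a pseudocount of 5, with the filter (which removes ABCA1) or with the replicate number as a block, 2 after rescaling, and 0 to 1 with a library left out. Between lactic acidosis and acidosis 2 passed, 1 with a pseudocount of 0.1 or 5 or with the filter (which removes ABCA12), 2 with the replicate block, and 1 to 2 with a library left out. Between lactosis and acidosis 0 passed, and 1 after rescaling with either pseudocount, with 0 to 1 when a library was left out. At an unadjusted p under 0.05, ABCB10 was the 1 member there. Over all genes 479, 636 and 280 passed in these 3 comparisons as reported. After rescaling 559, 611 and 378 passed, and with the replicate block 335, 590 and 240. With a pseudocount of 5 the counts were 529, 667 and 307, and with the filter 482, 631 and 277. With a pseudocount of 0.1 fewer genes passed than as reported in each comparison. All genes passing ranged from 259 to 663, 485 to 759 and 131 to 335 with a library left out. Signs turned only in differences that had not passed: ABCC4 (-0.0196 to 0.21) and ABCF2 (-0.0384 to 0.19) in lactic acidosis against lactosis, ABCA12 (-0.11 to 0.12) in lactosis against acidosis, and ABCA5 (-0.06 to 0.12, rescaled -0.036, with a pseudocount of 0.1 also -0.0639) in lactic acidosis against acidosis. The cause of these changes was not tested. Deviations of same-numbered libraries correlated between -0.387 and 0.217 over genes on deposited values, and those of differently numbered libraries between -0.486 and 0.478. Library scale enters these values, so they cannot decide whether the numbers pair the libraries.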
